A study of Homo sapiens with 80 samples.

Results

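Collagen genes were followed in a human osteosarcoma cell line in which the glucocorticoid receptor was supplied as 1 of 5 alleles. The members were all genes whose platform symbol reads COL, a number, A and a number, and that had a probe detected on at least 4 of the 80 arrays at a detection p under 0.05. Of 39 such genes with a probe, 34 passed, among 12547 genes tested, and each was read from its brightest kept probe. COL10A1, COL19A1, COL21A1, COL5A3 and COL6A5 did not pass. The 34 genes comprised 10 of 11 fibrillar collagens, 8 of 9 network-forming collagens, 7 of 9 collagens of the fibril-associated group, 3 of 4 chains of beaded filaments, 3 of 3 transmembrane collagens, 2 of 2 multiplexins and the anchoring fibril gene COL7A1.

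U2OS cells, which have little glucocorticoid receptor of their own, expressed GRgamma, A477T, 30iiB, E773R or GRalpha. GRgamma carries an additional arginine in the DNA-binding domain, A477T has a change at the dimer interface of that domain, 30iiB has changes in the amino-terminal activation region AF1, and E773R has a change in the activation surface AF2 of the ligand-binding domain. GRalpha is the common form and served as the comparison for the other alleles. Each line received ethanol for 4 h (called 0 h here) or dexamethasone, a synthetic glucocorticoid, at 100 nM for 2, 4 or 24 h, with 4 biological replicates in each of the 20 groups. All groups shared the U2OS background and medium with 5% fetal bovine serum. The labels do not say how each allele was introduced or whether each line was 1 clone, so a difference between lines at 0 h cannot be told apart from a difference between clones. No ethanol culture was kept for 24 h, so 24 h of hormone and 24 h of culture cannot be told apart.

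Collagens are secreted or membrane-bound proteins built from chains that wind into a helix. The fibrillar members form the fibrils of bone, skin and cartilage, the type IV chains form the sheet of basement membranes, and the fibril-associated and multiplexin members sit on fibrils or at the edge of basement membranes. In bone, osteoblasts lay down type I collagen as the scaffold that is later mineralised. Glucocorticoids act through a receptor that, once bound by hormone, enters the nucleus and raises or lowers the transcription of target genes, and they are known to lower collagen synthesis in bone and skin.

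The arrays had median signals between 82 and 925.75 before scaling and between 12233 and 17333 detected probes. They came from 10 slides of 8 arrays each, and no slide carried more than 1 array of any group. TSC22D3, a known direct glucocorticoid target, had log2 changes at 24 h of 3.14 in GRgamma, 0.59 in A477T (adjusted p = 0.43), 3.1 in 30iiB, 2.41 in E773R and 3.23 in GRalpha cells. The mesenchymal and bone-lineage markers VIM, CDH2, RUNX2 and ALPL were detected on all 80 arrays, as were the epithelial keratins KRT8 and KRT18. The blood markers PTPRC, CD14 and HBB were detected on 18, 16 and 4 arrays. The epithelial EPCAM and CDH1 were detected on 71 and 49 arrays, and the endothelial PECAM1 and VWF on 79 and 67. At 24 h, 2 of 4 epithelial markers were called in A477T cells and 1 of 4 in each other line. CDH1 was called lower in every line. Of the 4 mesenchymal and bone-lineage markers, 1 was called in GRgamma, 30iiB and GRalpha cells each. VWF, 1 of 2 endothelial markers, was called lower in A477T, 30iiB, E773R and GRalpha cells. Over all genes, between 5.64% and 17.9% were called at 24 h. The part of these markers in the collagen results was not tested. The receptor gene NR3C1 itself changed at 24 h by -0.93 in GRgamma, -0.73 in A477T, -0.62 in 30iiB, -1.08 in E773R and -1.21 in GRalpha cells, with a call in GRalpha. At 4 h NR3C1 was called lower in GRgamma (-1.26), A477T (-2.02), 30iiB (-1.56) and GRalpha cells (-1.84). At 2 h it was called lower in A477T (-1.64), 30iiB (-1.53) and GRalpha cells (-1.45). In E773R cells it had no call at any time. The labels do not say whether the NR3C1 probe reads the introduced allele, the cells' own transcript or both. All values are log2 signals after background correction and quantile normalisation. The p-values of limma were adjusted after Benjamini and Hochberg over all 12547 genes. A value counts as called where its adjusted p is under 0.05, and levels of different probes are not compared.

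COL15A1 showed the largest change of any collagen gene. It encodes the chain of type XV collagen, a multiplexin that links basement membranes to the fibrils beneath them. The 250 bases upstream of its start (chr9:98943657-98943906, plus strand, GRCh38.p14, from RefSeq) are shown because the gene carried the clearest response, with each GC box (GGGCGG, either strand) in capitals.
COL15A1 upstream: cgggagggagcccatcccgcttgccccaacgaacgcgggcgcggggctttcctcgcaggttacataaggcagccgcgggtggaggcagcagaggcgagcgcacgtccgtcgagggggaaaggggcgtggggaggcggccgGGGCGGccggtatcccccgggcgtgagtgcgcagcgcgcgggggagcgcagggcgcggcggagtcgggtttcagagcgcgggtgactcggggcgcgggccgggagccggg
A promoter row existed for 24 of the 34 genes, as 32 windows of 250 bases. The full palindromic glucocorticoid response element was in 0 of these 32 windows and in 0.003% of all promoters, and its arm AGAACA was in 3 windows (COL5A1 and COL9A1) against 12.4% of all promoters. The AP-1 motif TGANTCA was in 0 windows against 6.6% of all promoters, and the GC box was in 21 windows against 42.6%. All motifs were searched on both strands. A match is a description of the letters and not a binding site. With the full element in 0.003% of all promoters, a match in 32 windows was unlikely for any set of genes. Its absence therefore does not set collagen genes apart.

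At 24 h COL15A1 was higher in 4 of the 5 alleles. In GRgamma cells the 4 arrays read 9.35, 9.79, 9.63 and 9.70 at 24 h and 5.89, 5.88, 5.68 and 6.68 at 0 h. In A477T cells they read 5.41, 5.58, 5.41 and 5.10 at 24 h and 5.68, 7.32, 6.96 and 5.92 at 0 h. In these cells the gene was detected on 0 of 4 arrays at 24 h and on 2 of 4 at 0 h. In 30iiB cells the values were 11.03, 11.61, 11.29 and 12 at 24 h and 7.15, 7.38, 6.94 and 6.54 at 0 h. In E773R cells they were 8.63, 9.20, 9.51 and 9.46 at 24 h and 5.56, 6.28, 7.22 and 6.35 at 0 h. In GRalpha cells they were 11.02, 11.31, 11.57 and 11.35 at 24 h and 5.78, 6.23, 6.83 and 7.38 at 0 h. The 24 h and 0 h arrays did not overlap in GRgamma, 30iiB, E773R or GRalpha cells.

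The log2 change of COL15A1 at 24 h was 3.59 (SE 0.43, adjusted p = 6e-10) in GRgamma, 4.48 (SE 0.43, adjusted p = 2e-13) in 30iiB, 2.85 (SE 0.43, adjusted p = 8.8e-07) in E773R and 4.76 (SE 0.43, adjusted p = 1.7e-14) in GRalpha cells, the last a 27.1-fold rise. In A477T cells it was -1.09 (SE 0.43, adjusted p = 0.12) and was not called. It was -0.61 there with undetected arrays held no lower than the lowest detected signal, so the size of that change is only bounded. Held in the same way, the change was 3.29 in GRgamma, 4.48 in 30iiB, 2.81 in E773R and 4.74 in GRalpha cells. On the slides that held both groups the rise was between 3.93 and 5.58 in GRalpha, between 3.65 and 4.75 in 30iiB and between 2.29 and 3.95 in E773R cells, and it was 2.95 on the 1 such slide for GRgamma. The rise was already present at 4 h in GRgamma cells, with 6.81, 7.37, 7.74 and 8.0 at 4 h, and in GRalpha cells, with 7.93, 8.28, 8.26 and 8.24 at 4 h. The log2 changes at 4 h were 1.45 (SE 0.43, adjusted p = 0.035) in GRgamma and 1.62 (SE 0.43, adjusted p = 0.011) in GRalpha cells, while the values in A477T, 30iiB and E773R cells were 0.07, 1.36 and 0.12 and were not called. The 4 h call in GRgamma cells was lost without GRgamma 0 h replicates 1, 2 or 3 or GRgamma 4 h replicates 2, 3 or 4 (1.28 to 1.49), or with arrays set to a common median (1.12) or without background correction (0.62), and that in GRalpha cells was lost without GRalpha 0 h replicate 1 (1.36). At 2 h the mean level was 6.57 in GRgamma, 6.62 in A477T, 6.93 in 30iiB, 6.43 in E773R and 7.24 in GRalpha cells, with no call.

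**Figure D1:**
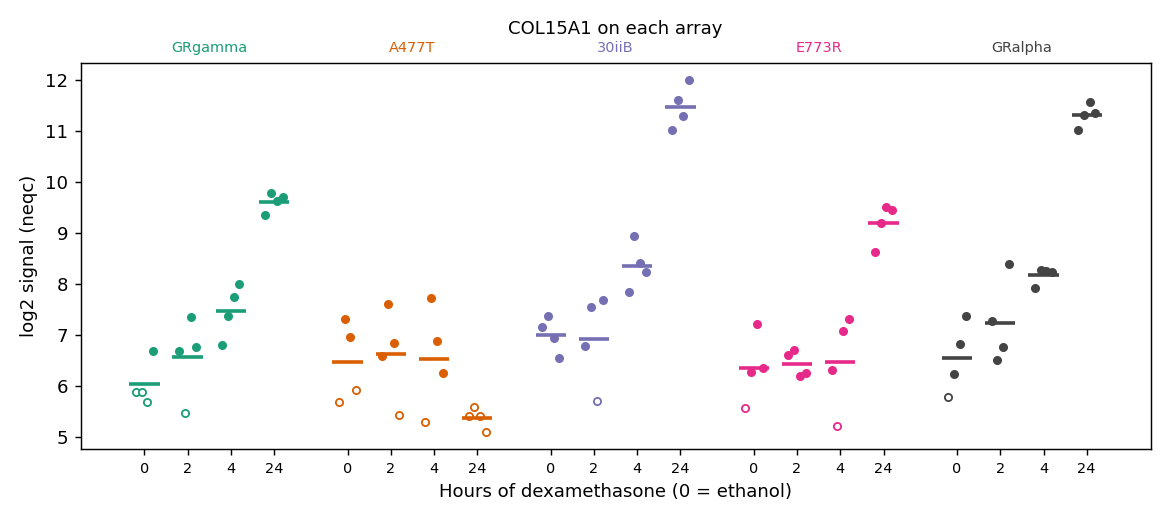
COL15A1 log2 signal (vertical axis) on each array by allele and hours of dexamethasone (horizontal axis), with 4 arrays a group. Filled points are detected arrays, open points are not detected, and bars are group means; the A477T arrays at 24 h are all open, between 5.1 and 5.58, while every other allele is higher at 24 h than at 0 h.

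The response of A477T cells differed from that of GRalpha cells by -5.85 (SE 0.61, adjusted p = 1.4e-11) on the log2 scale at 24 h. Because the A477T arrays at 24 h were all below detection, the same difference with every undetected array set no lower than the lowest detected signal on its array was -5.35. The differences from the GRalpha response at 24 h were -1.17 (SE 0.61, adjusted p = 0.74) for GRgamma, -0.28 (SE 0.61, adjusted p = 1) for 30iiB and -1.91 (SE 0.61, adjusted p = 0.12) for E773R, and were not called. At 4 h the difference for A477T was -1.55 (SE 0.61, adjusted p = 0.39), which was not called either. TSC22D3 also had its smallest 24 h change in A477T cells, whereas DCN, described with the fibril partners, had its largest there.

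Over all 34 genes, change was rare before 24 h. At 2 h, limma called 0 of the 170 gene and allele values, where 1.62% of all genes were called, and 11 of them had an unadjusted p under 0.05 (6 higher and 5 lower). At 4 h it called 4 of 170, all higher, against 3.59% of all genes called and 2.16% called higher. These were COL15A1 in GRgamma and GRalpha and COL6A1 in A477T and 30iiB cells. The 4 h count was 2 without GRgamma 0 h replicate 2, 0 h replicate 3 or 4 h replicate 2. At 24 h in GRgamma cells, 7 of 34 were called (20.6%), 4 higher and 3 lower, against 17.5% of all genes called, 9.86% higher and 7.67% lower. In A477T cells 4 were called (11.8%), 2 higher and 2 lower, against 9.25%, with 4.63% higher and 4.62% lower. In 30iiB cells 10 were called (29.4%), 2 higher and 8 lower, against 16.4%, with 8.07% higher and 8.3% lower. In E773R cells 4 were called (11.8%), 2 higher and 2 lower, against 5.64%, with 3.05% higher and 2.59% lower. In GRalpha cells 10 were called (29.4%), 2 higher and 8 lower, against 17.9%, with 8.66% higher and 9.21% lower. The share of collagens called was close to that of all genes in GRgamma and A477T cells and above it in the other lines, which was not tested. The median change of the 34 genes at 24 h was -0.03 in GRgamma, -0.3 in A477T, -0.19 in 30iiB, -0.04 in E773R and -0.19 in GRalpha cells, where the median of all genes lay between -0.02 and 0.02. Of the 34 genes, 15 (44.1%) were called at 24 h in at least 1 allele, against 30% of all genes. Each of the 15 went one way in every allele where it was called, 6 higher and 9 lower, as did 98.4% of all genes called at 24 h. The genes called in at least 3 alleles were COL15A1, COL6A1, COL13A1, COL3A1, COL8A2, COL9A2 and COL1A1. All 49 called values of the responses and the 0 h comparisons had the same direction on every slide that held both groups. The same arrays gave the calls, so this shared direction is not separate support. Some of these comparisons had only 1 such slide.

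The 24 h counts of every line moved when single arrays were left out. The GRgamma count was 4 without 0 h replicate 3 or without 24 h replicate 1. The A477T count was 2 without 24 h replicate 1. The E773R count was 1 without 0 h replicate 3 and 2 without 0 h replicate 4, 24 h replicate 2 or 24 h replicate 3. The GRalpha count was 6 without 24 h replicate 2, and the 30iiB count lay between 7 and 11. With the slide as a block, 7 genes were called in A477T cells. Under that setting 11.5% of all genes were called there, against 9.25% in the main fit. With arrays set to a common median, the calls were 1 higher and 2 lower in GRgamma and 2 higher and none lower in E773R cells. With the authors' processed values they were 5 higher and 9 lower in GRgamma, 2 higher and 6 lower in E773R and 4 higher and 9 lower in GRalpha cells. For the common median and the authors' values, the share of all genes called is not printed here. These counts therefore stand without that comparison.

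**Figure D2:**
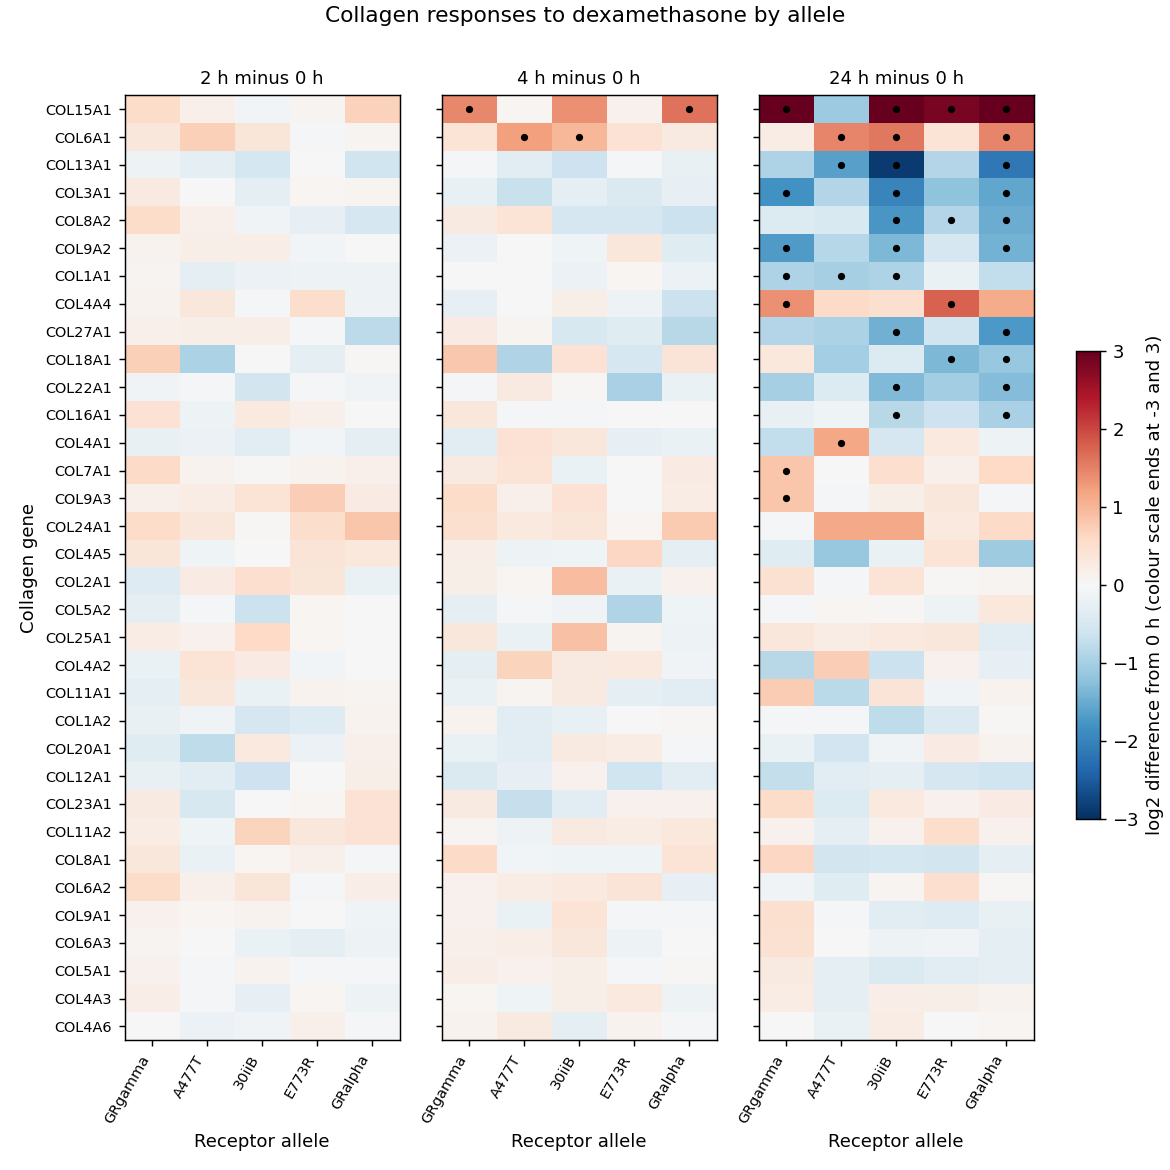
Log2 differences from 0 h at 2, 4 and 24 h (3 panels, colour scale ending at -3 and 3) for the 34 collagen genes (rows) in the 5 alleles (columns). Black points mark calls: 0 at 2 h, 4 at 4 h and 35 at 24 h, with COL15A1 higher and COL13A1, COL3A1, COL8A2, COL9A2 and COL1A1 lower at 24 h.

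COL6A1 rose in A477T, 30iiB and GRalpha cells. It encodes a chain of type VI collagen, which forms beaded filaments close to the surface of many cells. At 24 h the arrays read 12.21, 12.21, 12.05 and 11.70 against 10.43, 10.91, 10.58 and 10.40 at 0 h in A477T cells, 11.35, 12.14, 12.30 and 12.64 against 11.19, 10.07, 10.20 and 10.60 in 30iiB cells, and 12.96, 12.91, 12.01 and 12.38 against 11.49, 10.68, 11.21 and 11.02 in GRalpha cells. All 24 h arrays of these lines stood above all of their 0 h arrays. The log2 changes were 1.46 (SE 0.31, adjusted p = 0.00041) in A477T, 1.59 (SE 0.31, adjusted p = 5.9e-05) in 30iiB and 1.46 (SE 0.31, adjusted p = 0.00022) in GRalpha cells. In GRgamma cells the change was 0.23 (SE 0.31, adjusted p = 0.69) and in E773R cells 0.41 (SE 0.31, adjusted p = 0.71). The differences of these responses from that of GRalpha were -1.23 (SE 0.44, adjusted p = 0.21) for GRgamma and -1.06 (SE 0.44, adjusted p = 0.41) for E773R, which were not called. At 4 h COL6A1 was already higher in A477T cells by 1.22 (SE 0.31, adjusted p = 0.0097) and in 30iiB cells by 1.00 (SE 0.31, adjusted p = 0.048). The A477T call at 4 h was lost without A477T 4 h replicate 2 (1.01), or with arrays set to a common median (1.27). The 30iiB call was lost without 30iiB 0 h replicates 2, 3 or 4 or 30iiB 4 h replicates 1, 2 or 4 (0.82 to 1.06), or with only the arrays of the compared groups (1.00) or with arrays set to a common median (0.63) or without the detection filter (1.00).

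Across 0, 2, 4 and 24 h, COL6A1 averaged 10.70, 11.05, 11.12 and 10.93 in GRgamma cells, 10.58, 11.29, 11.80 and 12.04 in A477T cells and 10.52, 10.89, 11.52 and 12.11 in 30iiB cells. E773R cells averaged 9.82, 9.75, 10.26 and 10.23 and GRalpha cells 11.10, 11.19, 11.37 and 12.56. The other chains of type VI collagen did not pass the test in any response. COL6A2 averaged 9.48, 10.02, 9.61 and 9.37 in GRgamma cells, 9.31, 9.47, 9.53 and 8.95 in A477T cells and 9.48, 9.83, 9.77 and 9.56 in 30iiB cells. E773R cells averaged 7.95, 7.88, 8.33 and 8.45 and GRalpha cells 9.26, 9.47, 9.0 and 9.30 at those times. COL6A3, the longest chain of the filament, averaged 13.18, 13.27, 13.33 and 13.64 in GRgamma cells, 12.84, 12.83, 13.05 and 12.82 in A477T cells and 13.74, 13.54, 14.07 and 13.58 in 30iiB cells. E773R cells averaged 13.41, 13.11, 13.25 and 13.30 and GRalpha cells 13.25, 13.09, 13.23 and 12.99.

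**Figure D3:**
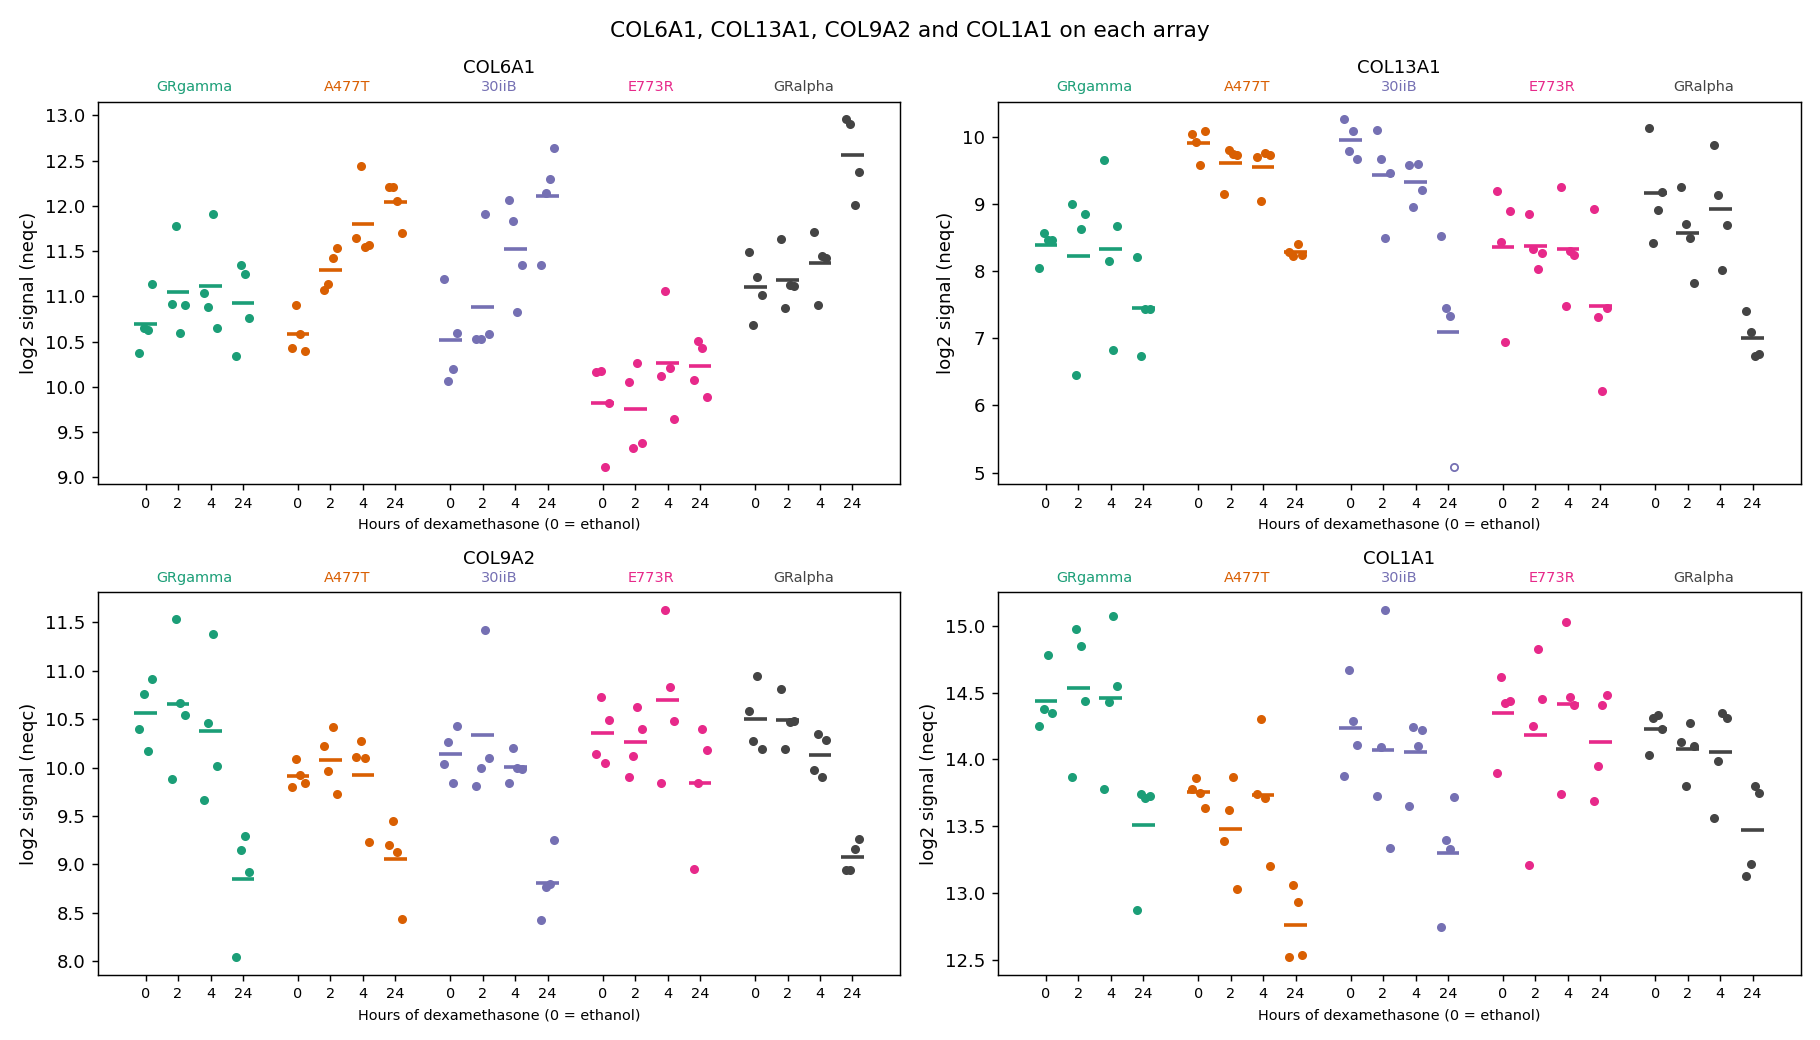
Log2 signal (vertical axes) of COL6A1, COL13A1, COL9A2 and COL1A1 on each array, by allele and hours of dexamethasone (horizontal axes), with 4 arrays a group, bars at the group means and an open point for an array without detection. COL6A1 is higher at 24 h than at 0 h in A477T, 30iiB and GRalpha cells, and COL13A1 is lowest at 24 h in each line.

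COL13A1 encodes a transmembrane collagen of cell adhesion sites and the neuromuscular junction. At 24 h it read 8.29, 8.23, 8.40 and 8.25 against 10.05, 9.93, 9.58 and 10.09 at 0 h in A477T cells, 8.53, 7.45, 7.33 and 5.09 against 10.27, 9.80, 10.09 and 9.68 in 30iiB cells, and 7.41, 7.10, 6.74 and 6.77 against 10.13, 8.42, 8.91 and 9.19 in GRalpha cells. The groups did not overlap in these 3 lines, and 1 of the 30iiB arrays at 24 h was below detection. The changes were -1.62 (SE 0.50, adjusted p = 0.025) in A477T, -2.86 (SE 0.50, adjusted p = 6.9e-06) in 30iiB and -2.15 (SE 0.50, adjusted p = 0.00075) in GRalpha cells. In GRgamma and E773R cells the values were -0.93 and -0.89 and were not called. The A477T call was lost without A477T 0 h replicates 1, 2 or 4 or A477T 24 h replicates 1, 2 or 4 (-1.62 to -1.56). Mean levels at 0, 2, 4 and 24 h were 8.39, 8.24, 8.33 and 7.46 in GRgamma cells, 9.91, 9.62, 9.56 and 8.29 in A477T cells and 9.96, 9.44, 9.34 and 7.10 in 30iiB cells. E773R cells averaged 8.37, 8.37, 8.33 and 7.48 and GRalpha cells 9.16, 8.57, 8.93 and 7.0. The group's other transmembrane collagens, COL23A1 and COL25A1, were called in no comparison.

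COL9A2 encodes a chain of type IX collagen, which coats the type II fibrils of cartilage. At 24 h it read 8.04, 9.15, 9.29 and 8.92 against 10.40, 10.76, 10.17 and 10.91 at 0 h in GRgamma cells, 8.42, 8.77, 8.80 and 9.25 against 10.04, 10.26, 9.84 and 10.43 in 30iiB cells, and 8.94, 8.94, 9.16 and 9.26 against 10.58, 10.27, 10.95 and 10.19 in GRalpha cells. Every 24 h array lay below every 0 h array of its line. The changes were -1.71 (SE 0.32, adjusted p = 2.7e-05) in GRgamma, -1.34 (SE 0.32, adjusted p = 0.001) in 30iiB and -1.42 (SE 0.32, adjusted p = 0.00041) in GRalpha cells, against -0.85 in A477T and -0.51 in E773R cells, which were not called. Mean levels at 0, 2, 4 and 24 h were 10.56, 10.66, 10.38 and 8.85 in GRgamma cells, 9.91, 10.08, 9.93 and 9.06 in A477T cells and 10.14, 10.33, 10.01 and 8.81 in 30iiB cells. E773R cells averaged 10.35, 10.26, 10.69 and 9.84 and GRalpha cells 10.50, 10.49, 10.13 and 9.07. Its partner chain COL9A3 was higher at 24 h in GRgamma cells by 0.83 (SE 0.30, adjusted p = 0.044), a call that was lost without GRgamma 0 h replicates 1, 3 or 4 or GRgamma 24 h replicates 1 or 4 (0.63 to 0.89), or with arrays set to a common median (0.54) or without background correction (0.30). COL9A1 was called in no comparison.

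COL8A2, a short chain of the network-forming type VIII collagen of vessel walls and the cornea, stood near the limit of detection. It read 5.43, 5.51, 5.68 and 6.01 at 24 h against 7.65, 7.05, 6.93 and 7.96 at 0 h in 30iiB cells, 5.78, 5.69, 6.13 and 6.75 against 6.52, 6.84, 7.59 and 6.88 in E773R cells, and 5.12, 5.50, 5.98 and 5.57 against 7.22, 6.96, 6.85 and 7.08 in GRalpha cells. At 24 h it was detected on 1 of 4 arrays in each of these lines, against 4 of 4 at 0 h. The changes were -1.74 (SE 0.25, adjusted p = 7.5e-08) in 30iiB, -0.87 (SE 0.25, adjusted p = 0.021) in E773R and -1.49 (SE 0.25, adjusted p = 3e-06) in GRalpha cells. The E773R call was lost without E773R 0 h replicate 3 or E773R 24 h replicates 1 or 2 (-0.77 to -0.66), or with the slide as a block (-0.71) or with only the arrays of the compared groups (-0.87) or with arrays set to a common median (-0.73). Mean levels at 0, 2, 4 and 24 h were 5.67, 6.22, 5.95 and 5.26 in GRgamma cells, 5.97, 6.13, 6.37 and 5.50 in A477T cells and 7.40, 7.30, 6.90 and 5.66 in 30iiB cells. E773R cells averaged 6.96, 6.71, 6.46 and 6.09 and GRalpha cells 7.03, 6.53, 6.39 and 5.54.

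COL27A1, a fibrillar collagen of cartilage, fell at 24 h in 30iiB and GRalpha cells. It read 5.82, 5.92, 5.59 and 5.12 at 24 h against 7.16, 7.05, 7.29 and 6.75 at 0 h in 30iiB cells, where it was detected on 0 of 4 arrays at 24 h, so that it was at least 2.05-fold lower (adjusted p = 0.0015). In GRalpha cells it read 5.12, 6.21, 5.54 and 5.35 against 7.06, 6.91, 7.84 and 7.30, a change of -1.73 (SE 0.36, adjusted p = 0.00013), with 1 of 4 arrays detected at 24 h. The values in GRgamma, A477T and E773R cells were -0.87, -0.94 and -0.60 and were not called. Mean levels at 0, 2, 4 and 24 h were 7.14, 7.30, 7.38 and 6.27 in GRgamma cells, 8.10, 8.27, 8.19 and 7.16 in A477T cells and 7.07, 7.27, 6.59 and 5.61 in 30iiB cells. E773R cells averaged 7.02, 6.95, 6.65 and 6.42 and GRalpha cells 7.28, 6.49, 6.45 and 5.55.

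COL1A1, the main chain of the type I collagen of bone, fell by a smaller amount. At 24 h it read 12.87, 13.74, 13.71 and 13.73 against 14.25, 14.38, 14.78 and 14.35 at 0 h in GRgamma cells, 12.52, 13.06, 12.93 and 12.54 against 13.78, 13.86, 13.75 and 13.64 in A477T cells, and 12.75, 13.40, 13.33 and 13.72 against 13.88, 14.67, 14.29 and 14.11 in 30iiB cells. The changes were -0.92 (SE 0.29, adjusted p = 0.018) in GRgamma, -0.99 (SE 0.29, adjusted p = 0.016) in A477T and -0.93 (SE 0.29, adjusted p = 0.016) in 30iiB cells. In E773R cells it was -0.21 (SE 0.29, adjusted p = 0.92) and in GRalpha cells -0.75 (SE 0.29, adjusted p = 0.067). The GRgamma call was lost without GRgamma 0 h replicate 3 or GRgamma 24 h replicate 1 (-0.81 to -0.71), or with the slide as a block (-0.70) or with arrays set to a common median (-1.47). The A477T call was lost without A477T 24 h replicates 1 or 4 (-0.92 to -0.91), or with arrays set to a common median (-1.32). The 30iiB call was lost without 30iiB 0 h replicate 2 or 30iiB 24 h replicate 1 (-0.79 to -0.75), or with arrays set to a common median (-0.88). Mean levels at 0, 2, 4 and 24 h were 14.44, 14.53, 14.46 and 13.52 in GRgamma cells, 13.76, 13.48, 13.74 and 12.76 in A477T cells and 14.24, 14.07, 14.05 and 13.30 in 30iiB cells. E773R cells averaged 14.35, 14.19, 14.41 and 14.13 and GRalpha cells 14.22, 14.08, 14.05 and 13.48. COL1A2, the partner chain of COL1A1 in type I collagen, was detected on at most 3 of 4 arrays of any group and on 0 of 4 in GRgamma cells at each time, and its levels at 0, 2, 4 and 24 h averaged 5.37, 5.13, 5.47 and 5.30 in GRgamma cells, 5.57, 5.46, 5.27 and 5.51 in A477T cells and 6.2, 5.70, 5.99 and 5.43 in 30iiB cells. E773R cells averaged 6.16, 5.78, 6.14 and 5.72 and GRalpha cells 5.30, 5.41, 5.34 and 5.33. It was called in no comparison.

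COL3A1, the fibrillar collagen of elastic tissues and early wound matrix, fell at 24 h in GRgamma, 30iiB and GRalpha cells. It read 6.63, 8.10, 8.63 and 8.26 at 24 h against 8.25, 10.09, 10.16 and 10.35 at 0 h in GRgamma cells, a change of -1.81 (SE 0.52, adjusted p = 0.0083). In 30iiB cells it read 5.13, 4.89, 5.64 and 4.72 against 5.81, 7.66, 6.33 and 8.52 and was detected on 0 of 4 arrays at 24 h, so that it was at least 2.07-fold lower (adjusted p = 0.0031). In GRalpha cells it read 9.43, 8.03, 9.41 and 9.32 against 10.78, 10.09, 10.37 and 11.19, a change of -1.56 (SE 0.52, adjusted p = 0.026). In A477T and E773R cells the changes were -0.88 and -1.21 and were not called. The GRgamma call was lost without GRgamma 24 h replicate 1 (-1.38). The 30iiB call was lost without background correction (-0.88). The GRalpha call was lost without GRalpha 0 h replicates 1 or 4 or GRalpha 24 h replicate 2 (-1.50 to -1.22), or with arrays set to a common median (-1.37). Mean levels at 0, 2, 4 and 24 h were 9.71, 9.97, 9.49 and 7.9 in GRgamma cells, 6.90, 6.91, 6.24 and 6.02 in A477T cells and 7.08, 6.81, 6.79 and 5.10 in 30iiB cells. E773R cells averaged 11.61, 11.68, 11.17 and 10.40 and GRalpha cells 10.61, 10.70, 10.37 and 9.05.

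Neither of the measured chains of type V collagen, which starts and limits the growth of type I fibrils, passed the test in a response. COL5A1 averaged 12.80, 12.93, 13 and 13.07 in GRgamma cells, 12.84, 12.81, 12.97 and 12.54 in A477T cells and 13.01, 13.12, 13.18 and 12.57 in 30iiB cells. E773R cells averaged 12.83, 12.78, 12.79 and 12.50 and GRalpha cells 12.85, 12.80, 12.88 and 12.57 at 0, 2, 4 and 24 h, and COL5A2 averaged 11.68, 11.41, 11.39 and 11.65 in GRgamma cells, 10.61, 10.58, 10.59 and 10.66 in A477T cells and 11.01, 10.38, 10.91 and 11.05 in 30iiB cells. E773R cells averaged 11.40, 11.47, 10.49 and 11.25 and GRalpha cells 12.09, 12.09, 11.95 and 12.41. The changes of COL5A1 at 24 h lay between -0.44 and 0.27.

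Among the fibril-associated collagens, COL16A1 and COL22A1 fell at 24 h in 30iiB and GRalpha cells. COL16A1, which links fibrils to their surroundings, changed by -0.84 (SE 0.29, adjusted p = 0.035) in 30iiB and -0.97 (SE 0.29, adjusted p = 0.011) in GRalpha cells. The 30iiB call was lost without 30iiB 0 h replicates 2 or 3 or 30iiB 24 h replicates 1, 3 or 4 (-0.86 to -0.73), or with arrays set to a common median (-0.86). The GRalpha call was lost without GRalpha 0 h replicate 2 or GRalpha 24 h replicates 1 or 2 (-0.86 to -0.76), or with arrays set to a common median (-0.68). COL22A1, a collagen of tissue junctions, changed by -1.32 (SE 0.46, adjusted p = 0.038) in 30iiB and -1.31 (SE 0.46, adjusted p = 0.037) in GRalpha cells. The 30iiB call was lost without 30iiB 0 h replicates 1, 2 or 3 or 30iiB 24 h replicates 2, 3 or 4 (-1.34 to -1.18). The GRalpha call was lost without GRalpha 0 h replicates 2, 3 or 4 or GRalpha 24 h replicates 1 or 2 (-1.37 to -1.08). At 0, 2, 4 and 24 h COL16A1 averaged 11.36, 11.80, 11.69 and 11.14 in GRgamma cells, 11.34, 11.19, 11.31 and 11.21 in A477T cells and 11.60, 11.89, 11.53 and 10.76 in 30iiB cells. E773R cells averaged 11.72, 11.87, 11.70 and 11.10 and GRalpha cells 11.63, 11.62, 11.65 and 10.66. COL22A1 averaged 8.02, 7.92, 7.97 and 7.02 in GRgamma cells, 8.97, 8.93, 9.25 and 8.57 in A477T cells and 8.86, 8.32, 8.89 and 7.54 in 30iiB cells. E773R cells averaged 8.70, 8.63, 7.72 and 7.66 and GRalpha cells 8.67, 8.57, 8.47 and 7.36 at those times.

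COL18A1, whose end fragment is endostatin, is the multiplexin closest to COL15A1. It changed at 24 h in E773R cells by -1.35 (SE 0.41, adjusted p = 0.036) and in GRalpha cells by -1.14 (SE 0.41, adjusted p = 0.046), so the measured multiplexins went opposite ways in both lines. A second kept probe of COL18A1 read changes of -0.08 in E773R and 0.11 in GRalpha cells, so the probes disagreed. The E773R call was lost without E773R 0 h replicates 2, 3 or 4 or E773R 24 h replicates 2 or 3 (-1.42 to -1.06), or with only the arrays of the compared groups (-1.35) or with arrays set to a common median (-1.17) or without background correction (-0.65) or with the mean of the kept probes (-0.71). The GRalpha call was lost without GRalpha 0 h replicates 1, 2 or 4 or GRalpha 24 h replicates 1 or 2 (-1.20 to -0.97), or without background correction (-0.49) or with an offset of 50 (-0.86) or without the detection filter (-1.14) or with the mean of the kept probes (-0.51). At 0, 2, 4 and 24 h COL18A1 averaged 7.53, 8.26, 8.34 and 7.85 in GRgamma cells, 7.03, 6.09, 6.13 and 6.00 in A477T cells and 7.40, 7.41, 7.83 and 6.99 in 30iiB cells. E773R cells averaged 7.92, 7.63, 7.40 and 6.57 and GRalpha cells 7.36, 7.39, 7.75 and 6.22. COL7A1, the collagen of the anchoring fibrils of skin, was higher at 24 h in GRgamma cells by 0.84 (SE 0.27, adjusted p = 0.021), a call that was lost without GRgamma 0 h replicates 1, 3 or 4 or GRgamma 24 h replicate 2 (0.75 to 0.82), or with arrays set to a common median (0.87).

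The 6 type IV chains of basement membranes are encoded in head-to-head pairs. In RefSeq's GRCh38.p14 annotation, 126 bases lie between the genes COL4A1 and COL4A2, the chains of the common network, on chromosome 13. COL4A4 and COL4A3 lie side by side on chromosome 2, and COL4A6 and COL4A5 on chromosome X with 379 bases between them. The interval shared by COL4A1 and COL4A2 (chr13:110307158-110307283, plus strand) is shown because these genes are read outward from it, with the CCAAT box and the GC box in capitals.
COL4A1 and COL4A2 interval: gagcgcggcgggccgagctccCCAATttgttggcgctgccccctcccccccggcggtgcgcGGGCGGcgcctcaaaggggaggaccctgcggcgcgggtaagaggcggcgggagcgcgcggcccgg
COL4A1 read 14.57, 14.59, 14.92 and 14.56 at 24 h against 13.18, 13.70, 13.63 and 13.47 at 0 h in A477T cells, and 12.79, 12.25, 13.31 and 12.86 against 12.49, 12.99, 12.83 and 13.53 in GRalpha cells. The A477T arrays at 24 h were all above their 0 h arrays, while the GRalpha groups overlapped. The change was 1.16 (SE 0.29, adjusted p = 0.003) in A477T and -0.16 (SE 0.29, adjusted p = 0.82) in GRalpha cells. In GRgamma, 30iiB and E773R cells it was -0.74, -0.50 and 0.29, with no call. The A477T call was lost with arrays set to a common median (0.98).

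COL4A2 had changes of the same sign as COL4A1 in each line at 24 h, without a call: -0.84 in GRgamma, 0.73 in A477T, -0.65 in 30iiB, 0.14 in E773R and -0.24 in GRalpha cells. At 0, 2, 4 and 24 h COL4A1 averaged 13.08, 12.86, 12.73 and 12.34 in GRgamma cells, 13.49, 13.32, 13.94 and 14.66 in A477T cells and 13.37, 13.04, 13.70 and 12.87 in 30iiB cells. E773R cells averaged 13.43, 13.35, 13.19 and 13.71 and GRalpha cells 12.96, 12.68, 12.75 and 12.80. COL4A2 averaged 11.79, 11.60, 11.51 and 10.95 in GRgamma cells, 11.43, 11.85, 12.11 and 12.17 in A477T cells and 11.64, 11.88, 11.91 and 10.98 in 30iiB cells. E773R cells averaged 11.55, 11.47, 11.85 and 11.69 and GRalpha cells 11.11, 11.11, 11 and 10.87. COL4A4, a chain of the basement membrane of the kidney filter, rose at 24 h in GRgamma cells by 1.38 (SE 0.47, adjusted p = 0.032) and in E773R cells by 1.78 (SE 0.47, adjusted p = 0.01). It was 1.12 (SE 0.47, adjusted p = 0.098) in GRalpha cells. The GRgamma call was lost without GRgamma 0 h replicates 1 or 3 or GRgamma 24 h replicates 2 or 3 (1.09 to 1.23), or with only the arrays of the compared groups (1.38) or with arrays set to a common median (0.99). The E773R call was lost without E773R 0 h replicates 3 or 4 or E773R 24 h replicate 3 (1.40 to 1.61), or with only the arrays of the compared groups (1.78). Its arrays read 6.49, 7.70, 8.07 and 6.46 at 24 h against 5.35, 6.53, 4.94 and 6.37 at 0 h in GRgamma cells, and 7.06, 7.66, 8.70 and 6.84 against 6.67, 6.39, 4.81 and 5.27 in E773R cells. It was detected on 2 of 4 arrays at 0 h and 4 of 4 at 24 h in both lines. At 0, 2, 4 and 24 h it averaged 5.80, 5.91, 5.55 and 7.18 in GRgamma cells, 4.82, 5.14, 4.83 and 5.38 in A477T cells and 5.93, 5.87, 6.10 and 6.41 in 30iiB cells. E773R cells averaged 5.79, 6.30, 5.62 and 7.57 and GRalpha cells 6.04, 5.88, 5.40 and 7.16. COL4A3, COL4A5 and COL4A6 were called in no comparison.

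**Figure D4:**
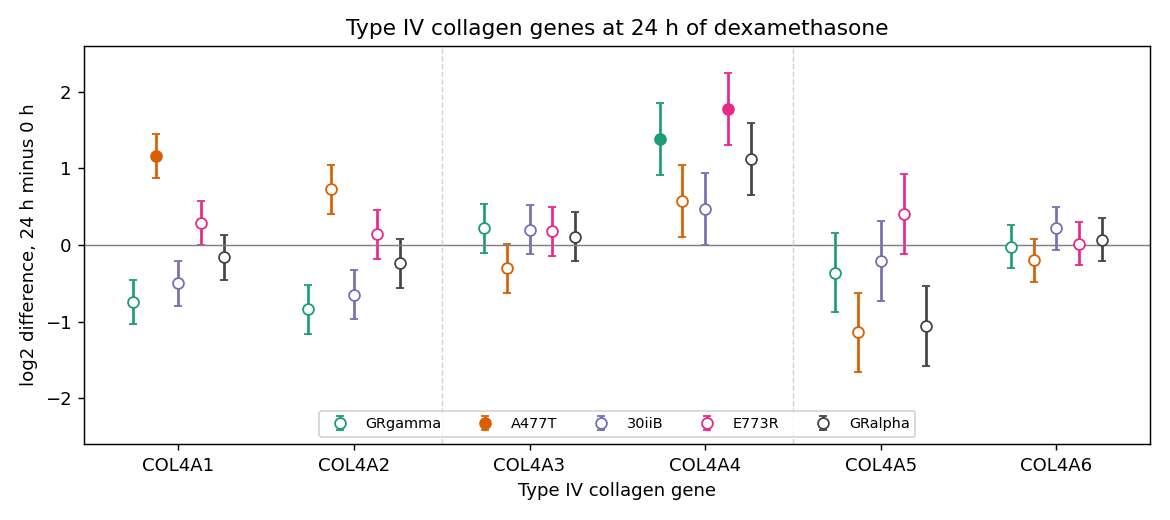
Log2 difference between 24 h and 0 h (vertical axis, point and SE) for the 6 type IV collagen genes (horizontal axis), by allele. Filled points were called: COL4A1 in A477T (1.16) and COL4A4 in GRgamma (1.38) and E773R (1.78); dashed lines separate the head-to-head pairs.

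Between 4 and 24 h of hormone, 27 of 170 gene and allele values were called (9 higher and 18 lower), where 8.48% of all genes were called, 4.49% higher and 3.99% lower. With arrays set to a common median they were 9 higher and 7 lower, and the share of all genes called under that setting is not printed here. COL15A1 rose by 2.14 (SE 0.43, adjusted p = 0.00022) in GRgamma, 3.12 (SE 0.43, adjusted p = 6.1e-08) in 30iiB, 2.73 (SE 0.43, adjusted p = 5.2e-06) in E773R and 3.14 (SE 0.43, adjusted p = 4.9e-08) in GRalpha cells, so most of its rise came after 4 h. COL13A1 changed by -2.24 (SE 0.50, adjusted p = 0.00075) in 30iiB and -1.93 (SE 0.50, adjusted p = 0.0047) in GRalpha cells. COL4A4 was higher at 24 h than at 4 h in GRalpha cells by 1.76 (SE 0.47, adjusted p = 0.0066), although its 24 h change from 0 h was not called there. COL11A1, a fibrillar collagen of cartilage, was called in this comparison alone of the 36 made, in GRgamma cells, at 0.95 (SE 0.30, adjusted p = 0.027), and this call was lost without GRgamma 4 h replicates 1 or 3 or GRgamma 24 h replicates 1, 2 or 3 (0.81 to 0.97), or with the slide as a block (0.79) or with the mean of the kept probes (0.47). In 30iiB cells COL4A1 changed from 4 to 24 h by -0.82 (adjusted p = 0.049) and COL4A2 by -0.93 (adjusted p = 0.047). COL4A2 had no other call in the 36 comparisons. Each of these calls was lost in 4 of 10 alternatives and in 6 of 8 fits without 1 array. The comparisons of 24 h with 4 h share the 24 h arrays with those against 0 h.

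The responses of the variants were set against that of GRalpha with a test of the difference itself. At 2 h and at 4 h, limma called 0 of 136 collagen values at each time, where 0.177% and 0.574% of all genes were called, and 3 values at 2 h and 9 at 4 h had an unadjusted p under 0.05. At 24 h it called 2 of 136, against 2.27% of all genes, and 17 had an unadjusted p under 0.05. Both called values were in A477T cells, the COL15A1 difference given above and the COL4A1 response, which was higher by 1.32 (SE 0.41, adjusted p = 0.041). The COL4A1 call was lost without GRalpha 0 h replicates 2 or 4 or GRalpha 24 h replicates 1, 2 or 4 or A477T 0 h replicates 1 or 4 or A477T 24 h replicates 1, 2, 3 or 4 (1.13 to 1.35), or with arrays set to a common median (0.69). The COL15A1 call held in each of these. COL4A2 differed by 0.97 (SE 0.46, adjusted p = 0.35) in A477T cells and was not called. COL8A2 differed by 1.08 (SE 0.36, adjusted p = 0.13) in GRgamma and 1.03 (SE 0.36, adjusted p = 0.089) in A477T cells, also without a call. In both lines COL8A2 was already near the limit of detection at 0 h, so the sizes of these differences are uncertain. For 30iiB, no collagen response at 24 h was called as different from that of GRalpha; COL15A1, COL6A1 and COL13A1 differed by -0.28, 0.13 and -0.71.

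Before hormone, the lines differed in a few collagen genes. At 0 h, 10 of 136 values were called against GRalpha (2 higher and 8 lower), where 1.24% of all genes were called, 0.665% higher and 0.576% lower. With the authors' processed values, 7 were higher and 11 lower. With arrays set to a common median 6 were called, and with only the arrays of the compared groups 5. The share of all genes called under these settings is not printed here. The 10 lay in COL3A1, COL5A2, COL6A1, COL6A2, COL8A1 and COL8A2. COL3A1 was lower in A477T and 30iiB cells. It read 6.83, 6.55, 8.0 and 6.22 in A477T and 5.81, 7.66, 6.33 and 8.52 in 30iiB cells, against 10.78, 10.09, 10.37 and 11.19 in GRalpha cells. All arrays of A477T and 30iiB lay below those of GRalpha, and the differences were -3.71 (SE 0.52, adjusted p = 7.1e-07) and -3.53 (SE 0.52, adjusted p = 1.7e-06). In GRgamma cells it read 8.25, 10.09, 10.16 and 10.35 and in E773R cells 11.43, 11.69, 11.89 and 11.43, with differences of -0.89 (SE 0.52, adjusted p = 0.97) and 1.00 (SE 0.52, adjusted p = 0.85). The slides shared by both groups gave -4.36 for A477T and -2.26 for 30iiB.

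COL8A1, the partner chain of COL8A2 in type VIII collagen, differed from GRalpha in 3 lines at 0 h. It read 6.39, 8.07, 7.84 and 7.64 in GRgamma, 11.49, 12.28, 12.26 and 11.78 in 30iiB and 9.56, 10.27, 10.54 and 10.83 in E773R cells, against 9.24, 8.99, 8.89 and 8.80 in GRalpha cells. The 30iiB and E773R arrays stood above and the GRgamma arrays below those of GRalpha. The differences were -1.50 (SE 0.29, adjusted p = 0.0013) in GRgamma, 2.97 (SE 0.29, adjusted p = 1.3e-11) in 30iiB and 1.32 (SE 0.29, adjusted p = 0.008) in E773R cells. The other kept probes of COL8A1 read -1.78 and -0.31 in GRgamma, 2.88 and 1.23 in 30iiB and 1.31 and 0.97 in E773R cells. The GRgamma call was lost without GRgamma 0 h replicate 1 (-1.13), or with only the arrays of the compared groups (-1.50). The E773R call was lost without E773R 0 h replicates 3 or 4 (1.14 to 1.24), or with only the arrays of the compared groups (1.32) or with arrays set to a common median (1.36). The lines stood in the same order of mean level at each time, with means at 0, 2, 4 and 24 h of 7.48, 7.83, 8.06 and 8.11 in GRgamma cells, 9.63, 9.43, 9.55 and 9.07 in A477T cells and 11.95, 12.01, 11.83 and 11.42 in 30iiB cells. E773R cells averaged 10.30, 10.46, 10.17 and 9.75 and GRalpha cells 8.98, 8.96, 9.40 and 8.70.

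COL8A2 differed from GRalpha at 0 h in GRgamma cells by -1.36 (SE 0.25, adjusted p = 0.0006) and in A477T cells by -1.06 (SE 0.25, adjusted p = 0.0062). The GRgamma call was lost with only the arrays of the compared groups (-1.36). The A477T call was lost with the slide as a block (-0.86). COL8A2 was near the limit of detection at 0 h in both lines, so the sizes of these differences are uncertain. COL5A2 read 10.42, 10.88, 10.65 and 10.51 in A477T cells against 11.78, 12.09, 11.90 and 12.60 in GRalpha cells, a difference of -1.48 (SE 0.38, adjusted p = 0.013), which was lost without GRalpha 0 h replicate 4 or A477T 0 h replicate 1 (-1.42 to -1.31), or with arrays set to a common median (-1.04). In E773R cells COL6A1 differed by -1.28 (SE 0.31, adjusted p = 0.024) and COL6A2 by -1.31 (SE 0.33, adjusted p = 0.036). The COL6A1 call was lost without GRalpha 0 h replicates 1, 3 or 4 or E773R 0 h replicates 3 or 4 (-1.31 to -1.05), or with only the arrays of the compared groups (-1.28) or with arrays set to a common median (-1.14). The COL6A2 call was lost without GRalpha 0 h replicates 1, 3 or 4 or E773R 0 h replicates 2, 3 or 4 (-1.41 to -1.15), or with only the arrays of the compared groups (-1.31) or with arrays set to a common median (-1.30) or without background correction (-0.90) or with the mean of the kept probes (-0.63), and its other kept probes read 0.38 and -0.96.

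**Figure D5:**
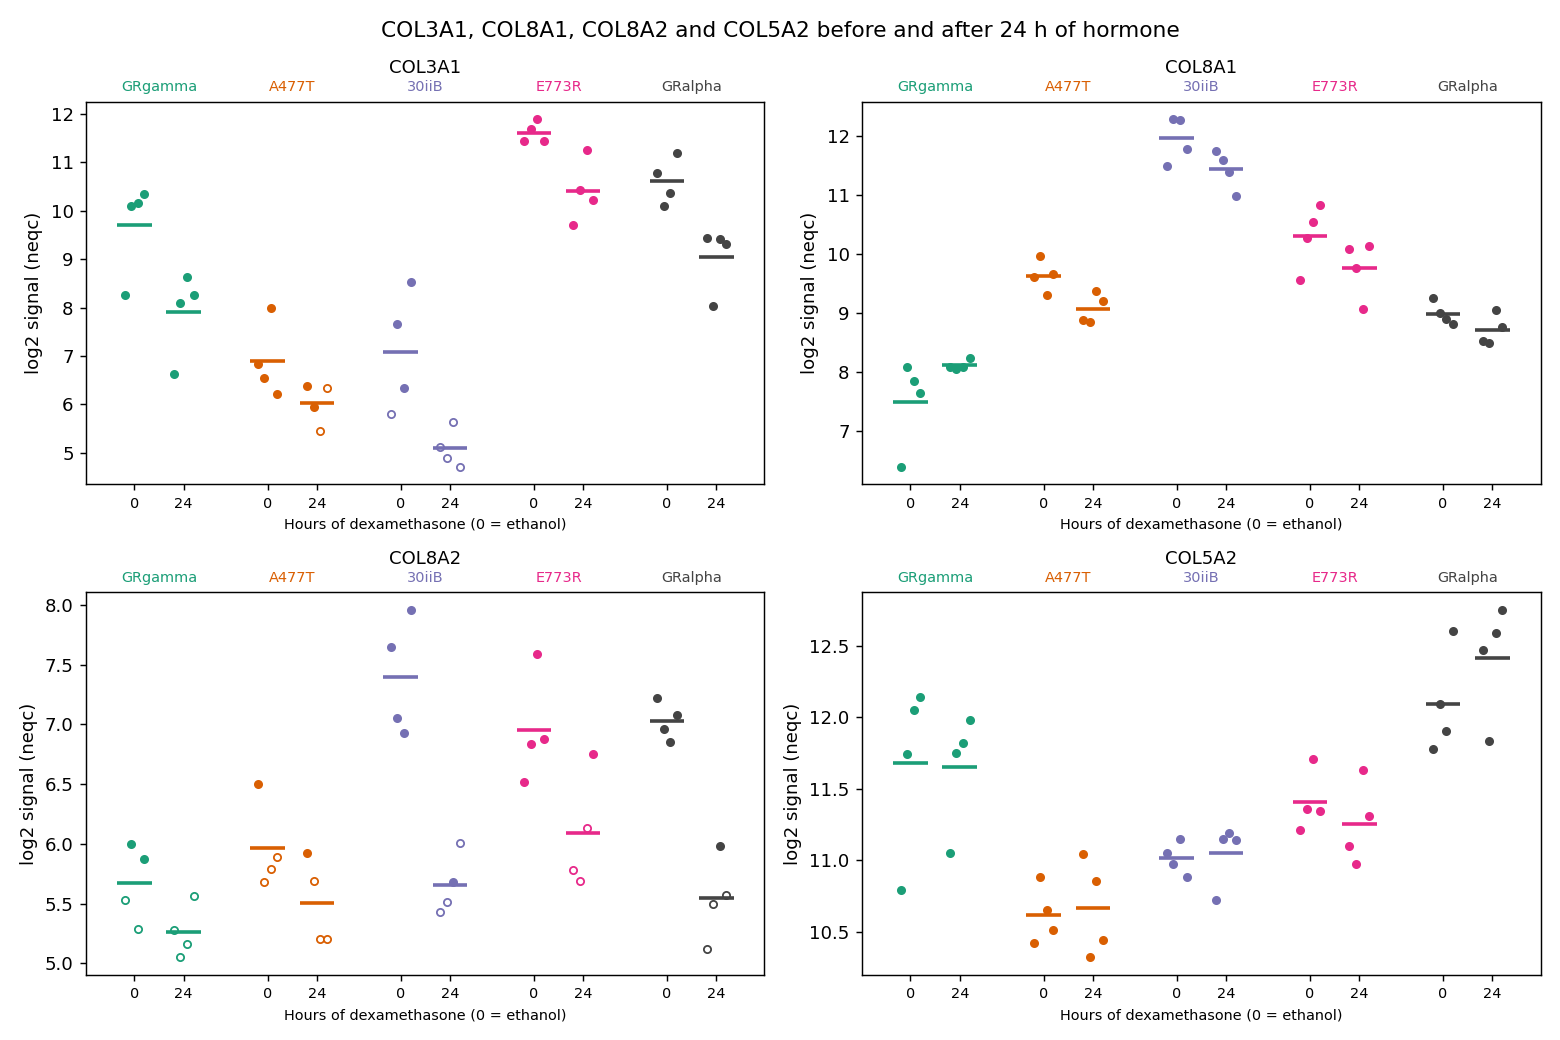
Log2 signal (vertical axes) of COL3A1, COL8A1, COL8A2 and COL5A2 on each array at 0 and 24 h of dexamethasone (horizontal axes), by allele, with 4 arrays a group, bars at the group means and open points for arrays without detection. COL3A1 is lower at 0 h in A477T and 30iiB than in GRalpha cells, and COL8A1 is highest in 30iiB cells at both times.

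Of the 34 genes, 15 were called in at least 1 of the 15 responses to hormone, where 31.8% of all genes were, and 19 (55.9%) in none. Over all 36 comparisons 20 (58.8%) were called at least once, where 35.8% of all genes were, and 14 (41.2%) never. The 14 were COL1A2, COL2A1, COL5A1, COL11A2, COL24A1, COL4A3, COL4A5, COL4A6, COL6A3, COL9A1, COL12A1, COL20A1, COL23A1 and COL25A1. Their responses lay between -1.14 (COL4A5 in A477T cells at 24 h) and 1.14 (COL24A1 in 30iiB cells at 24 h), a range that holds changes as large as some that were called. COL4A5 was detected on 0 of 4 A477T arrays at 24 h, which bounds its fall at 1.92-fold or more (adjusted p = 0.21). Of the 14, 11 were not detected on all 80 arrays, among them COL23A1 (7 arrays), COL4A6 (10) and COL1A2 (16). Of the 34 genes, 14 were detected on all 80 arrays.

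Genes that act on collagens were read from lists of enzymes, chaperones, partners and regulators. Of 15 measured genes for folding and hydroxylation, 4 were called higher and 1 lower at 24 h in GRgamma cells, 1 lower in A477T, 1 lower in 30iiB, 1 lower in E773R, and 1 higher and 2 lower in GRalpha cells. Over all genes, 17.5% were called at 24 h in GRgamma, 9.25% in A477T, 16.4% in 30iiB, 5.64% in E773R and 17.9% in GRalpha cells. These were 33.3% of the list in GRgamma, 6.67% in A477T, 6.67% in 30iiB, 6.67% in E773R and 20% in GRalpha cells. The medians over the 15 were 0.17 in GRgamma, -0.03 in A477T, 0 in 30iiB, -0.07 in E773R and 0.07 in GRalpha cells, against medians of all genes between -0.02 and 0.02. P3H2, a prolyl 3-hydroxylase, changed by -1.92 (SE 0.26, adjusted p = 1.9e-08) in A477T and -1.17 (SE 0.26, adjusted p = 0.00097) in E773R cells, and read -0.30, 0.66 and -0.45 in GRgamma, 30iiB and GRalpha cells. In E773R cells P3H2 was already higher than in GRalpha cells at 0 h, by 1.1 (SE 0.26, adjusted p = 0.014). The lysyl hydroxylase PLOD2 changed by -0.83 in GRgamma, -0.49 in A477T, -0.85 in 30iiB, -0.28 in E773R and -0.70 in GRalpha cells, with calls in GRgamma, 30iiB and GRalpha. P4HA2, a prolyl 4-hydroxylase subunit, changed by 0.95 in GRgamma, 0.18 in A477T, 0.47 in 30iiB, 0.36 in E773R and 0.56 in GRalpha cells, with calls in GRgamma and GRalpha. SERPINH1, the chaperone of procollagen, changed by -0.80 in GRgamma, -0.41 in A477T, -0.75 in 30iiB, -0.13 in E773R and -1.01 in GRalpha cells, with a call in GRalpha. In GRalpha cells the call of SERPINH1 was lost without GRalpha 0 h replicate 3 (-0.86), or with arrays set to a common median (-0.55). That of PLOD2 was lost without GRalpha 0 h replicates 2 or 4 or GRalpha 24 h replicates 1 or 2 (-0.67 to -0.48), or with only the arrays of the compared groups (-0.70) or with arrays set to a common median (-0.17), and that of P4HA2 was lost without GRalpha 0 h replicates 1, 3 or 4 or GRalpha 24 h replicates 1, 3 or 4 (0.44 to 0.57), or with only the arrays of the compared groups (0.56) or with arrays set to a common median (0.84) or with the mean of the kept probes (0.26). In GRgamma cells the P4HA2 call was lost with arrays set to a common median (0.87) or with the mean of the kept probes (0.73), and in 30iiB cells the PLOD2 call was lost with arrays set to a common median (-0.88).

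Of 13 measured genes for export and propeptide cleavage, 1 was called lower in GRgamma, A477T and 30iiB cells each, 2 higher in E773R and 2 lower in GRalpha cells. These were 7.69% of the list in GRgamma, 7.69% in A477T, 7.69% in 30iiB, 15.4% in E773R and 15.4% in GRalpha cells. Their medians were -0.08 in GRgamma, 0.11 in A477T, -0.15 in 30iiB, -0.19 in E773R and -0.07 in GRalpha cells. BMP1, the proteinase that removes the carboxy-terminal propeptide of fibrillar procollagens, changed by -0.94 in GRgamma, -0.72 in A477T, -1.07 in 30iiB, -0.44 in E773R and -1.06 in GRalpha cells and was called in all but E773R. The A477T call of BMP1 was lost without A477T 0 h replicates 2 or 3 or A477T 24 h replicates 3 or 4 (-0.71 to -0.67). Its enhancer PCOLCE2 was -0.73 (SE 0.27, adjusted p = 0.045) in GRalpha cells, a call that was lost without GRalpha 0 h replicates 1, 2 or 4 or GRalpha 24 h replicates 1, 2 or 3 (-0.76 to -0.65), or with arrays set to a common median (-0.55). ADAMTS2, which removes the amino-terminal propeptide, rose by 1.67 (SE 0.41, adjusted p = 0.004) in E773R cells, where it was detected on 4 of 4 arrays at 24 h and 2 of 4 at 0 h. The other lines had no call, with changes of -0.16 (GRgamma), 0.18 (A477T), 0.56 (30iiB) and 0.86 (GRalpha).

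Of 12 measured cross-linking enzymes and fibril partners, 2 were called higher and 2 lower in GRgamma, 2 higher and 3 lower in A477T, 3 higher and 3 lower in 30iiB, 2 higher and 1 lower in E773R, and 3 higher and 4 lower in GRalpha cells. These were 33.3% of the list in GRgamma, 41.7% in A477T, 50% in 30iiB, 25% in E773R and 58.3% in GRalpha cells. Their medians were 0.16 in GRgamma, -0.79 in A477T, -0.32 in 30iiB, -0.47 in E773R and -0.48 in GRalpha cells. LOX, the lysyl oxidase that starts collagen cross-links, was among those called higher in each line, and LOXL1, its relative, changed by -1.33 in GRgamma, -1.91 in A477T, -1.72 in 30iiB, -0.67 in E773R and -1.63 in GRalpha cells and was called lower in all but E773R. DCN encodes decorin, a small proteoglycan that binds type I collagen fibrils. It changed by 0.46 in GRgamma, 6.56 in A477T, 2.56 in 30iiB, 0.83 in E773R and 4.03 in GRalpha cells, with calls in A477T, 30iiB and GRalpha cells. In A477T cells its mean level was 13.29 at 24 h and 6.74 at 0 h, and in GRalpha cells 9.34 and 5.31. At 0 h DCN was detected on 3 of 4 arrays in A477T and 30iiB, 2 in E773R, 1 in GRalpha and 0 in GRgamma cells. In GRgamma cells 1 of 4 arrays was detected at 24 h, so that value has only a bound. The DCN response of A477T cells was higher than that of GRalpha cells by 2.53 (SE 0.59, adjusted p = 0.0021). Its size is uncertain, since DCN in GRalpha cells at 0 h was near the limit of detection. Before hormone DCN was called higher than in GRalpha cells by 1.43 in A477T and 1.46 in 30iiB cells. TGM2, a transglutaminase that cross-links matrix proteins, changed by 1.97 in GRgamma, -0.50 in A477T, 1.34 in 30iiB, 2.6 in E773R and 3.32 in GRalpha cells, with calls in all lines but A477T, and the A477T response differed from that of GRalpha by -3.82 (SE 0.45, adjusted p = 1e-09). The lines differed in TGM2 before hormone. At 0 h it was called higher than in GRalpha cells by 1.39 in GRgamma, 1.95 in A477T and 2.66 in 30iiB cells. Its mean level was 10.22 at 0 h and 9.72 at 24 h in A477T cells, and 8.28 and 11.60 in GRalpha cells. THBS1, a matrix glycoprotein that activates latent TGF-beta, changed by -2.10 in GRgamma, -1.79 in A477T, -1.76 in 30iiB, -1.01 in E773R and -2.71 in GRalpha cells and was called in all but E773R.

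Of 6 measured collagen receptors, ITGA1 was called higher at 24 h in every line, and the receptor kinase DDR1 was called higher in GRgamma and 30iiB cells. ITGA1 encodes the integrin subunit that prefers type IV collagen. The changes of ITGA1 were 3.90 in A477T, 2.24 in 30iiB and 1.87 in GRalpha cells, and, since it was detected on 0 of 4 arrays at 0 h there, at least 1.73-fold in GRgamma and at least 1.72-fold in E773R cells. The A477T response was higher than that of GRalpha by 2.03 (SE 0.5, adjusted p = 0.0046). Called receptors were 33.3% of the list in GRgamma, 16.7% in A477T, 33.3% in 30iiB, 16.7% in E773R and 16.7% in GRalpha cells. The medians over the 6 receptors were 0.39 in GRgamma, -0.03 in A477T, 0.37 in 30iiB, 0.06 in E773R and 0 in GRalpha cells.

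Of 10 measured genes of collagen breakdown, 3 were called lower at 24 h in GRgamma, 3 in A477T, 4 in 30iiB, 3 in E773R and 4 in GRalpha cells, and FAP was called higher in GRgamma and A477T cells. Called genes were 40% of the list in GRgamma, 40% in A477T, 40% in 30iiB, 30% in E773R and 40% in GRalpha cells. Their medians were -0.32 in GRgamma, -0.29 in A477T, -0.46 in 30iiB, -0.19 in E773R and -0.31 in GRalpha cells. TIMP3, an inhibitor of matrix proteinases held in the matrix, changed by -3.39 in GRgamma, -2.96 in 30iiB, -2.65 in E773R and -3.31 in GRalpha cells, and was at least 5.04-fold lower in A477T cells, where it was detected on 0 of 4 arrays at 24 h. The gelatinase MMP2 changed by -1.03 in GRgamma, -0.92 in A477T, -0.90 in 30iiB, -0.70 in E773R and -1.25 in GRalpha cells, with a call in each. The collagenase MMP13 was at least 3.47-fold lower in 30iiB, at least 4.95-fold lower in E773R and at least 2.93-fold lower in GRalpha cells, with 0 of 4 arrays detected at 24 h in each, and changed by -2.25 in A477T cells. In GRgamma cells it was detected on 0 of 4 arrays at 24 h and 2 of 4 at 0 h, and the value was not called (adjusted p = 0.21). TIMP2 was called lower in GRgamma (-0.68) and GRalpha cells (-0.83). The GRalpha call was lost without GRalpha 0 h replicate 4 or GRalpha 24 h replicate 4 (-0.74 to -0.73), or with arrays set to a common median (-0.31) or with the mean of the kept probes (-0.47).

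Of 12 measured TGF-beta ligands, receptors and transcription factors of collagen genes, 4 were called lower in GRgamma, 4 in A477T, 2 in 30iiB, 1 in E773R and 3 in GRalpha cells, with medians of -0.39 in GRgamma, -0.19 in A477T, -0.26 in 30iiB, 0.07 in E773R and -0.22 in GRalpha cells. These were 33.3% of the list in GRgamma, 33.3% in A477T, 16.7% in 30iiB, 8.33% in E773R and 25% in GRalpha cells. TGFB2, a ligand that raises collagen production in many cells, changed by -3.61 in GRgamma, -2.78 in A477T, -2.95 in 30iiB, -1.85 in E773R and -2.84 in GRalpha cells, with a call in each. TGFB3 changed by -1.62 in GRgamma, -0.66 in A477T, -0.99 in 30iiB, -0.76 in E773R and -1.26 in GRalpha cells, with calls in GRgamma, 30iiB and GRalpha. SOX9, the transcription factor that drives cartilage collagens, changed by -1.40 in GRgamma, -1.35 in A477T, -0.82 in 30iiB, -0.39 in E773R and -1.07 in GRalpha cells, with calls in GRgamma, A477T and GRalpha. The GRalpha call was lost without GRalpha 0 h replicates 2 or 4 or GRalpha 24 h replicates 3 or 4 (-0.99 to -0.91), or with arrays set to a common median (-0.66).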

How the data were processed

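RNA of U2OS cells from 20 groups was hybridised to 80 single-colour bead arrays. The deposited signals, which the authors named non-normalised, are intensity values for 25204 probes with array medians between 82 and 925.75. A detection p-value stands beside each, per the file headers, and whether background was subtracted before deposit is not stated. The authors' deposited series matrix holds log2 values for 21241 probes (array medians between 7.89 and 7.97); its normalisation is unknown here, and it served as an alternative, in which 78 of 80 columns correlated best with their own array. The labels name neither the scanner software nor a genome build.

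Intensities were background-corrected with the detection p-values, given an offset of 16, quantile-normalised and logged (neqc of limma 3.58.1, R 4.3.3, data.table version 1.17.8; matplotlib 3.10.9 and pandas 2.3.3 in Python 3.11.15 for figures and promoters). Of 19291 probes with 1 symbol, 15392 detected at p under 0.05 on at least 4 arrays were kept, and the brightest represented its gene; 5913 probes without a symbol were left out. One limma model of 20 group means (60 residual and 5.54 prior degrees of freedom) gave 36 two-sided contrasts. A gene detected on none of the 4 arrays of a group has only a bound, from the higher of its own signal and the lowest detected signal of each array. Data were simulated for 12547 genes on 80 arrays as independent normal noise. Each gene kept its mean over all arrays and its spread within the 20 groups. Changes were added to the simulated GRalpha 24 h arrays alone. Of 50 genes changed by 0.5 on the log2 scale, the fit of GRalpha 24 h against 0 h recovered 4%. It recovered 46% at 1, 84% at 2 and 100% at 3, with 6 false calls. The simulation held no slide or array effects. It also changed a far smaller share of genes than the 17.9% called in GRalpha cells at 24 h. The adjustment of p-values was therefore stricter in the simulation, and its recovery rates do not carry over directly to the data. Alternatives were the slide or the replicate number as a block, only the arrays of the compared groups, median scaling, no background correction, an offset of 50, the series matrix values, no detection filter, detection on all 4 arrays of a group, the mean of a gene's probes, and each array left out. The precision is limited by the 4 arrays of a group.

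The members, gene lists and tests were chosen with earlier results of these data known. Values of every group are given for the 12 collagens with most calls over the 15 responses, for the main chains of types I, III, IV, V and VI, and for collagens called at 0 h or in a response difference. In each pathway list, genes named are the called members with the largest change in GRalpha cells, up to 4, and the largest in each variant. FAP, LOX, DDR1, COL7A1, COL9A3 and COL11A1 were named after their values were seen.

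Replicate numbers were tested for pairing. Over 760 pairs of same-numbered samples, deviations from group means correlated between -0.67 and 0.8 (median 0.036, 309 over 0.1), so the numbers were not used as pairs.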

Additional observations from a re-analysis of the deposited data

Results flagged for a closer look

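COL3A1 in GRgamma cells at 0 h stood apart on 1 array, where replicate 1 read 8.25 and the other 3 arrays read 10.09, 10.16 and 10.35 on the log2 scale. It was 1 of 47 gene and group values tested for a sample far from the others, and chance flags about 1 in 20 groups. The fall of COL3A1 at 24 h in GRgamma cells was -2.30 without this array and -1.81 with it.

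The 24 h response of COL15A1 differed between A477T and GRalpha cells by -5.85 (SE 0.61, adjusted p = 1.4e-11). All 4 A477T arrays were below detection at 24 h, and with undetected arrays held at the lowest detected signal the difference was -5.35. The 24 h response of COL4A1 differed between A477T and GRalpha cells by 1.32 (SE 0.41, adjusted p = 0.041), and the value lay between 1.13 and 1.49 when each array of these groups was left out in turn, and the call was lost without 11 of those 16 arrays.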

How the results depend on the processing

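Of 78 collagen values called, 30 kept their call in all 10 alternatives and in every fit without 1 array of their groups, 43 lost it in at least 1 alternative and 42 without at least 1 array, and 0 reversed. With arrays scaled to a common median, the count was 2 at 4 h, 3 in GRgamma cells at 24 h, 2 each in A477T and E773R cells at 24 h, 16 for 24 h against 4 h and 6 at 0 h; this scaling moved the median of all genes by up to 0.24 upward and by -0.36 downward. With the authors' series matrix values, the counts were 2 at 2 h, 14 (GRgamma), 9 (A477T), 16 (30iiB) and 8 (E773R) at 24 h, 49 for 24 h against 4 h, 6 for the response differences at 24 h and 18 at 0 h. With only the arrays of the compared groups, a smaller fit, 1 gene was called in E773R cells at 24 h and 5 values at 0 h. With the slide as a block 7 genes were called in A477T cells at 24 h, where 11.5% of all genes were called under that setting. Without background correction 4 response differences were called at 24 h. Except for the replicate block at 24 h, the other counts here are not set against the share of all genes called under that setting. A higher or lower count there cannot be told apart from a setting that calls more or fewer of all genes. The cause of these shifts was not tested. Leaving out 1 array at a time gave 0 to 0 calls at 2 h, 2 to 5 at 4 h, then at 24 h 4 to 8 (GRgamma), 2 to 5 (A477T), 7 to 11 (30iiB), 1 to 4 (E773R) and 6 to 11 (GRalpha), 22 to 28 for 24 h against 4 h, 0 to 0 for the response differences at 4 h, 1 to 3 at 24 h and 7 to 10 at 0 h. The response difference count at 24 h was 1 without GRalpha 0 h replicates 2 or 4, GRalpha 24 h replicates 1, 2 or 4, A477T 0 h replicate 4 or any A477T 24 h array. The replicate block, whose numbers do not pair the samples, gave 5 calls at 4 h, then at 24 h 7 (GRgamma), 5 (A477T), 10 (30iiB), 4 (E773R) and 11 (GRalpha), 31 for 24 h against 4 h, 2 response differences at 24 h and 10 values at 0 h. With that block, 18.3% of all genes were called at 24 h in GRgamma, 9.83% in A477T and 16.9% in 30iiB cells. The share was 5.99% in E773R and 18.5% in GRalpha cells. Signal near background limits the 20 genes not detected on all 80 arrays, from COL23A1 (7) and COL4A6 (10) to COL13A1 and COL22A1 (79), with COL15A1 at 64.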
